A study of Mus musculus with 6 samples.

Results

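Plau, Plat, Plaur, Serpine2, Thbd and F3 are the 6 genes of plasminogen activation and coagulation described here, out of 25239 genes listed in the count table. They were picked out by gene symbol, and all 6 were among the 15256 genes that passed the filter on low counts. Plau and Plat encode plasminogen activators, Plaur the receptor of the Plau product, and Serpine2 a serpin inhibitor. Thbd and F3 are neither activators nor serpins, and belong to the coagulation side of the same system.

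The libraries were bulk RNA-seq of thyroid organoids made from 1 mouse embryonic stem cell line with a G4 RosaLuc background and inducible transgenes. In it, doxycycline (1 µg/ml, 5 days in all groups) switches on Nkx2-1 and Pax8. A bovine Tg promoter drives a BrafV637E-ERT2 fusion protein, the mouse counterpart of human BRAF V600E, which 4-hydroxytamoxifen activates. The driver thus acts in cells that express thyroglobulin, while RNA was taken from whole organoids of several pooled wells, enriched for follicles and collected at day 31. Every group carried the transgenes and received 8-Br-cAMP. The cAMP group had no further drug, and the methods describe an ethanol vehicle for such controls. The 4OHT group had 1 µM of 4-hydroxytamoxifen for 5 days, and the PD+LY group had 4-hydroxytamoxifen with the MEK inhibitor PD0325901 (250 nM) and the PI3K inhibitor LY204002 (5 µM) for 3 days. PD+LY organoids had also received 4-hydroxytamoxifen before the inhibitors, so the days of that drug may differ from those of the 4OHT group. Each group held 2 libraries, numbered here as in the labels.

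Plasminogen is a circulating zymogen that activators cut into plasmin, a protease of fibrin and matrix. Urokinase (Plau) acts mostly at the cell surface, bound to its receptor uPAR (Plaur), and tissue-type activator (Plat) acts mostly on fibrin, while serpins such as protease nexin-1 (Serpine2) trap both enzymes and thrombin. Tissue factor (F3) starts coagulation, and thrombomodulin (Thbd) holds thrombin in a form that activates the anticoagulant protein C.

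By GENCODE M21 on GRCm38, Plau (ENSMUSG00000021822) lies on the plus strand at chr14:20836660-20843385 and has 11 exons. Plat (ENSMUSG00000031538) lies on the plus strand at chr8:22757727-22782844. Plaur (ENSMUSG00000046223) lies on the plus strand at chr7:24462484-24475968. Serpine2 (ENSMUSG00000026249) lies on the minus strand at chr1:79794197-79861180. Thbd (ENSMUSG00000074743) is a single exon on the minus strand at chr2:148404466-148408188. F3 (ENSMUSG00000028128) lies on the plus strand at chr3:121723537-121735048. No exonic base of any of the 6 is shared with another gene of this annotation on either strand.

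Promoter windows of 3 of the 6 genes, Plaur, F3 and Serpine2, were matched in RefSeq on GRCm38.p6. Those of Plaur and F3 are printed because the receptor gene passed the tests and tissue factor did not, and because both hold an AP-1 motif, the site of the Fos and Jun factors that act downstream of ERK. Each holds the 250 bases before the gene start, 5′ to 3′ on the gene strand, and capitals mark AP-1 motifs (TGANTCA) and GC boxes (GGGCGG) on either strand.
Plaur, plus strand, chr7:24462233-24462482: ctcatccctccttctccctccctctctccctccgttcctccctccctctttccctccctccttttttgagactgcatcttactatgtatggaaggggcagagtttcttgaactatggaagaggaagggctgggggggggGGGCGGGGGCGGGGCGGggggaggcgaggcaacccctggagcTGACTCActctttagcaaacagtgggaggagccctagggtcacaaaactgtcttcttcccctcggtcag
F3, plus strand, chr3:121723287-121723536: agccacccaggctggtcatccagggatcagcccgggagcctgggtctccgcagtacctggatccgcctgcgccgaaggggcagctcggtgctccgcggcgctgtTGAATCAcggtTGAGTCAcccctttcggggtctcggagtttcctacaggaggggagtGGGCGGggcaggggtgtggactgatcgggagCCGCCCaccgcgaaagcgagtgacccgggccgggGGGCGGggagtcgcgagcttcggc

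The Plaur window held 1 AP-1 motif, TGACTCA, whose first base lies at −69 from the start. The F3 window held 2, TGAATCA at −146 and TGAGTCA at −135. The Serpine2 window (chr1:79858666-79858915, not printed) held none. It lies wholly inside the GENCODE span of that gene, so its positions below count back from the end of the window and not from the GENCODE start. Of 32851 promoter windows of this length, 6.75% held an AP-1 motif. Plaur and F3 had 3 GC boxes each and Serpine2 had 6, in some places overlapping, against at least 1 in 32.7% of all windows. An ETS core (CCGGAA or AGGAAG, found in 38.2% of windows) lay at −130 in Plaur and at −25 in Serpine2. No CRE (TGACGTCA, 1.55% of windows), CRE core (TGACG, part of a CRE, 17.8%) or TATA box (TATAAA, 12.4%) was in any of the 3 windows. Both strands were searched throughout. These matches are letters in a window, and the AP-1 motif stood in front of a gene that passed a test as well as one that did not.

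The libraries held 14898409 to 20637959 counts, so that 1 count was worth 0.0486 to 0.0667 CPM (counts relative to the library total, scaled by TMM). Of 12 ERK output genes 0 were called by edgeR in 4OHT against cAMP, where 1 was higher and 3 lower by adjusted p alone (median log2 fold change −0.26), and 9 were called lower in PD+LY than in 4OHT, among them Dusp6 (−2.45), Spry4 (−6.33) and Etv4 (−6.18). The 2 PD+LY libraries differed from each other more than the other pairs (chi-square over its degrees of freedom 15.1, beside 7.16 for cAMP and 4.08 for 4OHT). All 8 thyroid markers were above 3 counts in every library, and so were all 12 parietal endoderm markers, so the organoids were not thyroid cells alone. In such bulk RNA, fewer cells of a type and less RNA per cell cannot be told apart.

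**Figure D1:**
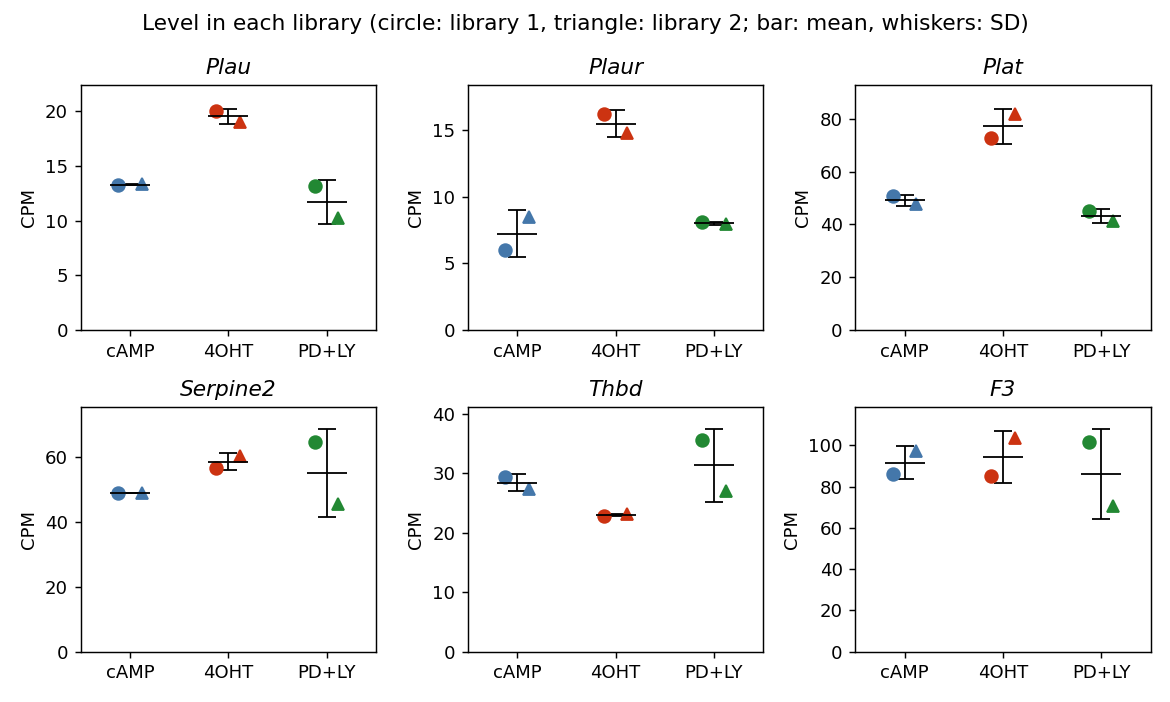
Level of each of the 6 genes in CPM (vertical axes, starting at 0) in the cAMP, 4OHT and PD+LY groups, with a circle for library 1, a triangle for library 2, a bar for the mean and whiskers for the SD. Plau, Plaur and Plat are highest in both 4OHT libraries, and Serpine2, Thbd and F3 are farthest apart between the 2 PD+LY libraries.

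Plau, the urokinase gene, had 211 and 273 counts in the cAMP libraries, 300 and 347 in the 4OHT libraries, and 258 and 211 in the PD+LY libraries. In CPM these were 13.3 and 13.3, 20.015 and 19.0, and 13.1 and 10.3. Both 4OHT libraries lay above all the others, and both PD+LY libraries lay below cAMP, library 1 by very little. The means were 13.3 ± 0.0239 CPM for cAMP, 19.5 ± 0.693 for 4OHT and 11.7 ± 2.04 for PD+LY (SD, n = 2 each).

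Plat, the tissue-type activator gene, had 805 and 976 counts under cAMP alone, 1087 and 1492 with 4OHT, and 882 and 849 with PD+LY. The levels were 50.6 and 47.6 CPM, 72.5 and 81.8 CPM, and 44.9 and 41.3 CPM, in the same order. The order was that of Plau, with 4OHT above, PD+LY lowest and no overlap between any 2 groups. Mean levels were 49.1 ± 2.17 CPM for cAMP, 77.2 ± 6.59 for 4OHT and 43.1 ± 2.57 for PD+LY (SD, n = 2).

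Plaur, the receptor gene, was the least abundant of the 6 by counts, with 95 and 174 under cAMP alone, 243 and 270 with 4OHT, and 159 and 163 with PD+LY. These corresponded to 5.98 and 8.48 CPM, 16.2 and 14.8 CPM, and 8.10 and 7.93 CPM. The 4OHT libraries were again clear of the rest, whereas the PD+LY libraries fell between the 2 cAMP libraries, which were far apart. Means were 7.23 ± 1.77 CPM for cAMP, 15.5 ± 0.991 for 4OHT and 8.01 ± 0.121 for PD+LY (SD, n = 2).

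Serpine2, the serpin of the 6, had 778 and 1005 counts under cAMP alone, 849 and 1100 with 4OHT, and 1269 and 937 with PD+LY. The levels were 48.9 and 49.0 CPM, 56.6 and 60.3 CPM, and 64.6 and 45.6 CPM. The 4OHT libraries were slightly above cAMP, and the PD+LY libraries held both the highest and the lowest value of all 6. The mean was 49.0 ± 0.0327 CPM for cAMP, 58.5 ± 2.62 for 4OHT and 55.1 ± 13.5 for PD+LY (SD, n = 2).

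Thbd, the thrombomodulin gene, had 468 and 562 counts under cAMP alone, 342 and 421 with 4OHT, and 700 and 556 with PD+LY. In CPM it stood at 29.4 and 27.4, at 22.8 and 23.1, and at 35.7 and 27.0. It was the one gene of the 6 whose 4OHT libraries were below all the others. The means were 28.4 ± 1.45 CPM for cAMP, 23.0 ± 0.196 for 4OHT and 31.3 ± 6.09 for PD+LY (SD, n = 2).

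F3, the tissue factor gene, had 1366 and 1996 counts under cAMP alone, 1278 and 1884 with 4OHT, and 1991 and 1456 with PD+LY. Its levels were 85.9 and 97.3 CPM, 85.3 and 103 CPM, and 101 and 70.8 CPM. All 3 groups overlapped. The means were 91.6 ± 8.03 CPM for cAMP, 94.3 ± 12.8 for 4OHT and 86.1 ± 21.6 for PD+LY (SD, n = 2).

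Between genes, levels were compared per kilobase of exon. F3 was the most abundant in each group, at 36.3 CPM per kb for cAMP, 37.3 for 4OHT and 34.1 for PD+LY, and its lowest library (28.0) was above the highest library of any other member (13.1 CPM per kb, Plat in 4OHT). In cAMP, Plat (7.87 CPM per kb) and Thbd (7.63) followed with overlapping libraries, then Serpine2 (5.91) and Plau (5.61), and Plaur was lowest (2.76). In 4OHT the order was Plat (12.4 CPM per kb), Plau (8.25), Serpine2 (7.06), Thbd (6.17) and Plaur (5.93), and the libraries of Thbd and Plaur overlapped. In PD+LY, Thbd (8.42 CPM per kb), Plat (6.91) and Serpine2 (6.65) came first, then Plau (4.94) and Plaur (3.06), and the spread Serpine2 libraries overlapped those of Thbd, Plat and Plau. The place of Serpine2 depended on the length used, because its annotated transcripts differ widely. Taking the longest transcript, it stood at 14.4, 17.2 and 16.2 CPM per kb in cAMP, 4OHT and PD+LY, above Plat in cAMP (12.2) and PD+LY (10.7) but not in 4OHT (19.1). With that length Thbd (6.17 CPM per kb), and not Plaur (7.72), was lowest in 4OHT.

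The first comparison asked what followed 4-hydroxytamoxifen, the drug that activates the Braf fusion. No group had this drug without the fusion, so an effect of the drug itself cannot be told apart. Plaur rose 2.13-fold in 4OHT against cAMP and Plat rose 1.57-fold, while Plau was 0.55 higher on the log2 scale without passing the test. Serpine2, Thbd and F3 did not pass either. For Plaur the log2 fold change was 1.09 (SE 0.199, 95% interval 0.66 to 1.53), with an adjusted p of 0.00706 by the edgeR quasi-likelihood test with Benjamini-Hochberg adjustment over all tested genes. For Plat it was 0.65 (SE 0.114, 0.41 to 0.90, adjusted p = 0.00556 by edgeR). Both were above cAMP in 2 of 2 libraries, but so were Plau and Serpine2, which did not pass, and Thbd was below cAMP in both. How many of all tested genes separate in this way was not counted, so the separation is a description only. Plaur was the only one of the 6 called by an adjusted p under 0.05 together with a 2-fold change, when 2.67% of all tested genes were called. By adjusted p alone 2 of 6 were higher and 0 lower, where 4.04% of all genes were higher and 4.35% lower.

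The Plau change in 4OHT against cAMP had an interval of 0.19 to 0.91 (SE 0.165, adjusted p = 0.0598 by edgeR). It passed at 0.0235 when no filter on low counts was used, at 0.0206 with the replicate block, and at 0.0171 when only the 2 groups entered the fit. It did not pass with RLE size factors (adjusted p = 0.0597 by edgeR) or by DESeq2 (adjusted p = 0.0728). Serpine2 differed by 0.26 on the log2 scale (−0.07 to 0.58, adjusted p = 0.324 by edgeR) and Thbd by −0.31 (−0.64 to 0.02, adjusted p = 0.243 by edgeR). For F3 the difference was 0.04 (−0.30 to 0.38, adjusted p = 0.901 by edgeR), so a 2-fold change of tissue factor lay outside its interval. The median over the 6 genes was 0.41 on the log2 scale, against a median near 0 over all tested genes (−0.0022). Single libraries mattered here. Without cAMP library 1 the Plaur change was 0.87 (adjusted p = 0.0593 by edgeR), without 4OHT library 1 it was 1.03 (adjusted p = 0.0837 by edgeR), and without 4OHT library 2 the Plat change was 0.57 (adjusted p = 0.102 by edgeR).

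**Figure D2:**
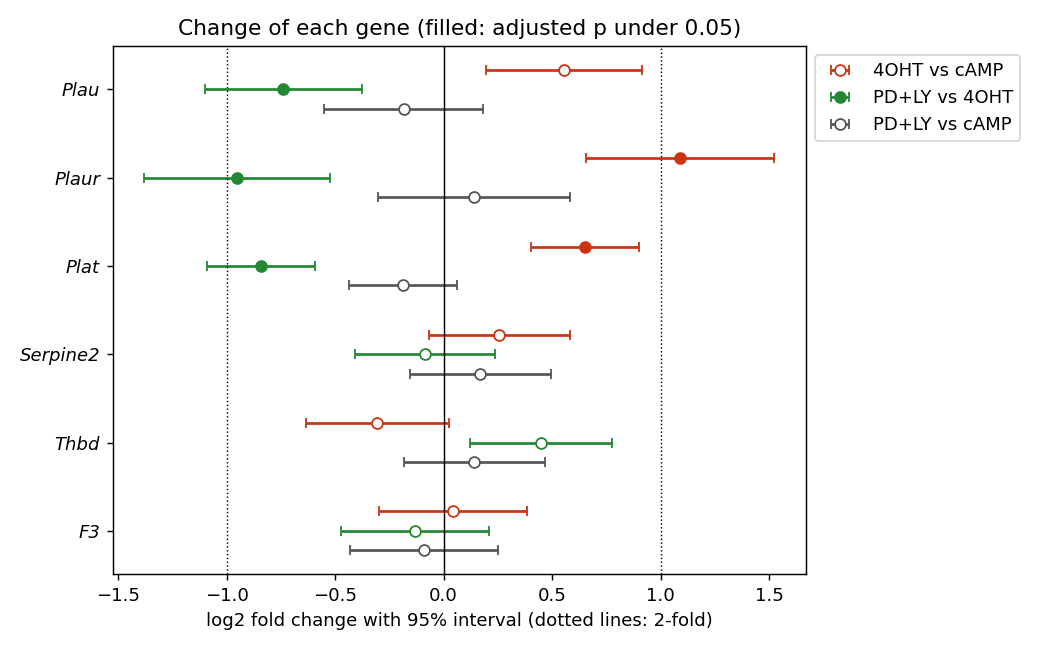
Log2 fold change (horizontal axis) of each of the 6 genes (rows) in the 3 comparisons, with 95% intervals as whiskers, filled points for an edgeR adjusted p under 0.05 and dotted lines at a 2-fold change. Plaur and Plat are filled on the right in 4OHT against cAMP, Plau, Plaur and Plat are filled on the left in PD+LY against 4OHT, and no point is filled in PD+LY against cAMP.

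The second comparison asked what the inhibitors did while 4-hydroxytamoxifen went on. Both activator genes and the receptor gene fell in PD+LY against 4OHT. Plat fell by 0.84 on the log2 scale (SE 0.114, interval −1.09 to −0.59, adjusted p = 0.000426 by edgeR). Plaur fell by 0.95 (SE 0.196, −1.38 to −0.52, adjusted p = 0.00517), which is 1.93-fold lower and just short of the 2-fold threshold. Plau fell by 0.74 (SE 0.165, −1.10 to −0.38, adjusted p = 0.00804). Each was below 4OHT in 2 of 2 PD+LY libraries, again without a count of how many of all tested genes separate so. With the 2-fold threshold 0 of the 6 were called by edgeR, beside 7.26% of all tested genes. By DESeq2 0 of the 6 were called as well, beside 974 of all tested genes. By adjusted p alone 3 of 6 were lower and 0 higher, where 12.1% of all genes were lower and 10.7% higher.

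Thbd moved the other way, with a difference of 0.45 on the log2 scale (SE 0.15, 0.12 to 0.78) and both PD+LY libraries above both 4OHT libraries, but its adjusted p was 0.0503 by edgeR. It passed with no filter (0.46, adjusted p = 0.0169 by edgeR) and with the replicate block (0.44, adjusted p = 0.0167 by edgeR). It did not pass with RLE size factors (adjusted p = 0.0517 by edgeR) or by DESeq2 (adjusted p = 0.0561). Nor did it pass with only the 2 groups compared (adjusted p = 0.0626 by edgeR). Without PD+LY library 2 it was 0.64 (adjusted p = 0.00545 by edgeR), and without PD+LY library 1 it was 0.24. Serpine2 (−0.09, −0.41 to 0.24, adjusted p = 0.709 by edgeR) and F3 (−0.13, −0.47 to 0.21, adjusted p = 0.575 by edgeR) did not pass. The direction of both rested on which PD+LY library was kept. Without library 1, Serpine2 was −0.36 (adjusted p = 0.0438 by edgeR) and F3 was −0.42 (adjusted p = 0.0384), and without library 2 they were 0.14 and 0.10. The adjusted p of Plau rose past 0.05 without 4OHT library 1 (−0.70, adjusted p = 0.068 by edgeR) or library 2 (−0.77, adjusted p = 0.0579), and so did that of Plaur without 4OHT library 1 (−0.88, adjusted p = 0.0516). The differences themselves stayed near those with all libraries. Plat passed without any 1 of the 6 libraries, between −0.92 and −0.75.

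The first 2 comparisons share the 4OHT libraries, so a high 4OHT value alone gives a rise in one and a fall in the other. The comparison of PD+LY with cAMP does not use them, and there 0 of the 6 genes passed by edgeR, with or without the 2-fold threshold, beside 9.24% and 25.7% of all tested genes. By DESeq2 0 of the 6 passed by adjusted p alone. With the 2-fold threshold added, DESeq2 called 1250 of all tested genes. Plau (−0.18, interval −0.55 to 0.18) and Plat (−0.19, −0.44 to 0.06) were lower in both PD+LY libraries than in either cAMP library. Plaur (0.14, −0.30 to 0.58), Serpine2 (0.17, −0.15 to 0.49), Thbd (0.14, −0.18 to 0.47) and F3 (−0.09, −0.43 to 0.25) overlapped. The intervals stayed inside a 2-fold change for all 6, but they do not show that PD+LY and cAMP were alike. Without PD+LY library 2 Serpine2 was 0.40 (adjusted p = 0.0199 by edgeR), and without library 1 F3 was −0.37 (adjusted p = 0.0484 by edgeR).

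**Figure D3:**
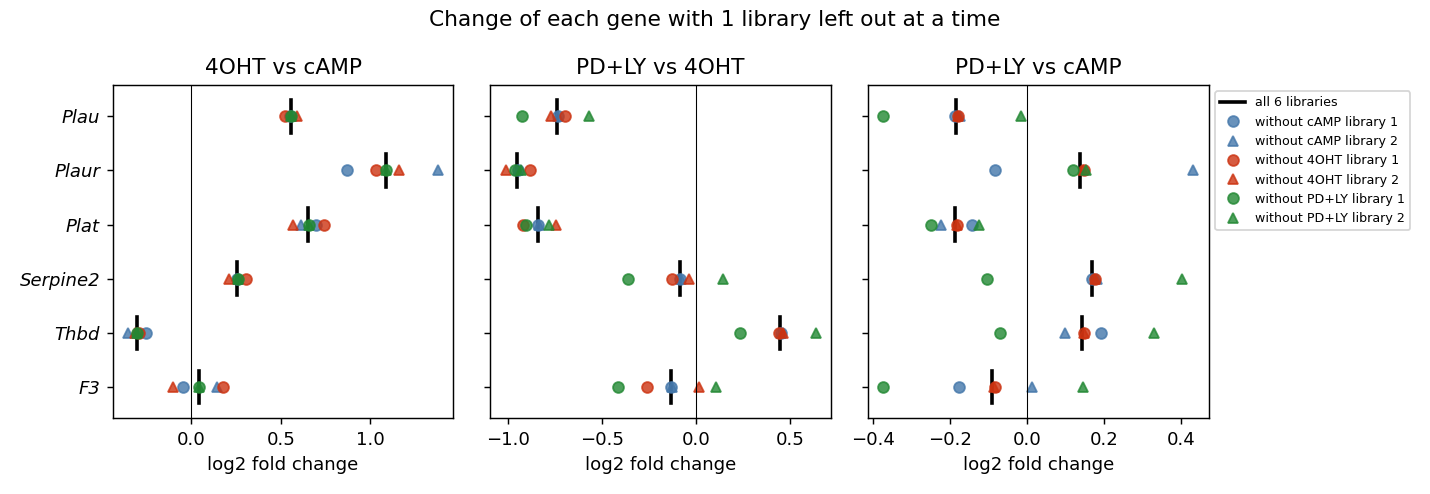
Log2 fold change (horizontal axes, with a different scale in each panel) of each of the 6 genes in the 3 comparisons, with a black line for all 6 libraries and a symbol for each library left out. In PD+LY against 4OHT the Plat values stay between −0.92 and −0.75, whereas Serpine2 runs from −0.36 to 0.14 and F3 from −0.42 to 0.10.

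Marker lists of some other cell types moved with the groups as well. The summed level of 12 mesenchymal or fibroblast markers ranged from 1220 to 1328 CPM for cAMP, 2270 to 2390 for 4OHT and 4127 to 4869 for PD+LY, and that of 10 epithelial markers from 1232 to 1330, 894 to 1007 and 829 to 874. Most of the mesenchymal sum was Col1a1, Col1a2 and Col3a1, and single members of both lists had their highest mean in 4OHT, as Plau, Plaur and Plat did. Among these were Pdgfrb (26.9 CPM for cAMP, 31 for 4OHT, 12.9 for PD+LY) and Krt19 (40.6, 47.7 and 22.5 CPM). The summed level of the 8 thyroid markers was lowest in 4OHT (570 to 760 CPM, against 1103 to 1647 in cAMP and 985 to 1974.5 in PD+LY), as was Thbd, but nearly all of it was Tg (1294, 604 and 1388 CPM on average). Pax8 was highest in 4OHT (15.2, 19.7 and 15.6 CPM). The 10 pluripotent markers summed to 3831 to 3993 CPM in cAMP, 4376 to 4566 in 4OHT and 4478 to 4745 in PD+LY. Of them 0 were called in each comparison, although 3 were higher by adjusted p alone in 4OHT against cAMP. Of the 12 parietal endoderm markers 0 were called in 4OHT against cAMP, and 1 was called lower in PD+LY against each other group. The part of all these markers in the changes of the 6 genes was not tested.

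Thbd is also a gene of vessel lining cells. Of 12 endothelial markers 11 were tested, and 5 were called lower and 0 higher in 4OHT against cAMP, with a median log2 fold change of −1.40. Between PD+LY and 4OHT, where Thbd was higher in PD+LY without passing, 2 of the 11 were called lower and 0 higher, and 7 of 11 values were negative (median −0.33). The summed level of the list hardly moved (232 to 233 CPM in cAMP, 248 to 251 in 4OHT, 215 to 220 in PD+LY), since Pecam1 and Egfl7 made up most of it. Cdh5 was at 7.96 CPM for cAMP, 2.86 for 4OHT and 4.01 for PD+LY, and Kdr at 10.3, 2.06 and 3.30. Pecam1 was highest in 4OHT (132, 169 and 152 CPM), and Esam was lowest in PD+LY (9.02, 10.2 and 4.98 CPM), so the markers did not share 1 order. The part of these cells in the Thbd values was not tested. Macrophages are another known source of F3, Plaur and Plau. The macrophage genes Ptprc, Adgre1, C1qa and C1qb and the platelet gene Gp9 had no count in any library. Other genes of these lists did have counts, such as the macrophage genes Csf1r (1.04 CPM for cAMP, 1.15 for 4OHT, 0.871 for PD+LY) and Mrc1 (0.436, 0.176 and 0.201). The summed level of 10 macrophage markers (65.2 to 67.5 CPM in cAMP, 57.2 to 63.2 in 4OHT, 32.2 to 33.7 in PD+LY) was mostly Cd68. The 6 megakaryocyte markers summed to 10.5 to 13.1, 11.03 to 11.5 and 2.85 to 4.09 CPM. Most of this was Ppbp (6.54, 7.26 and 1.51 CPM) and Itga2b (5.19, 3.89 and 1.81 CPM). These were the 2 tested, and both were called lower in PD+LY against each other group. The part of such cells in the changes of the 6 genes was not tested.

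The zymogen itself was nearly absent from the organoid RNA. Plg, the plasminogen gene, had 1 count in 4OHT library 1 and none in the other libraries, which is under the floor of 3 counts (0.146 to 0.200 CPM). The contact-phase activators Klkb1 and F12 and the inhibitors Serpina5 and Cpb2 had no count in any library. Serpinf2, the plasmin inhibitor α2-antiplasmin, had at most 2 counts and Tfpi2 at most 3. Serpinb2, a serpin inhibitor of urokinase, had 1 to 12 counts and was not tested. St14, the matriptase gene, which can activate urokinase, was present at 72.4 ± 0.365 CPM for cAMP, 96.5 ± 2.12 for 4OHT and 80.2 ± 6.84 for PD+LY (SD, n = 2). It rose by 0.41 on the log2 scale in 4OHT against cAMP (adjusted p = 0.027 by edgeR), and in PD+LY it was 0.27 lower than in 4OHT without passing (adjusted p = 0.0775).

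**Figure D4:**
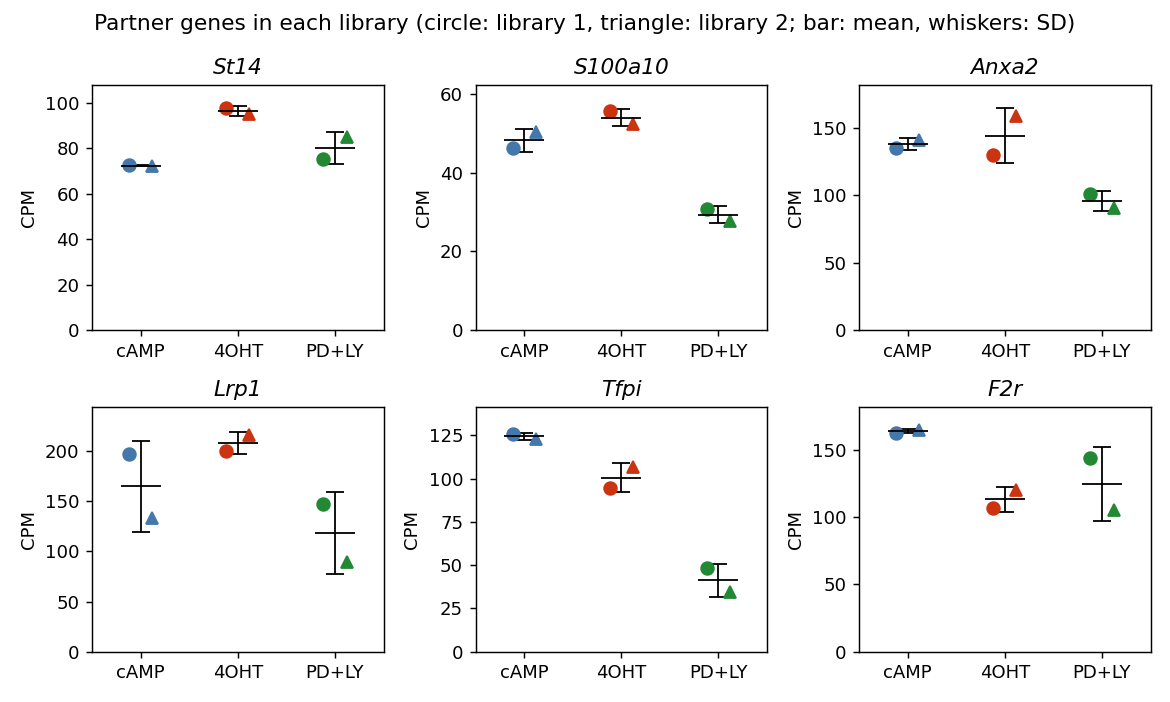
Level in CPM (vertical axes, starting at 0) of 4 partners of the plasminogen system and of the coagulation genes Tfpi and F2r in the cAMP, 4OHT and PD+LY groups, with a circle for library 1, a triangle for library 2, a bar for the mean and whiskers for the SD. St14 is highest in both 4OHT libraries, S100a10, Anxa2 and Tfpi are lowest in both PD+LY libraries, with S100a10 at 29.3 CPM on average there against 54.0 in 4OHT, while F2r is highest in both cAMP libraries.

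Other serpins were set beside Serpine2. Serpini1, neuroserpin, was at 2.73 to 4.47 CPM on average and passed none, and neither did Serpinh1, a serpin that serves as a collagen chaperone and does not inhibit proteases (697 to 737 CPM). Not all serpins were flat. Of 11 other serpins tested, 3 were higher in 4OHT against cAMP and 3 lower in PD+LY against 4OHT by adjusted p alone, with 0 the other way. Serping1 (84.7 CPM for cAMP, 124.6 for 4OHT, 77.8 for PD+LY) and Serpinb6a (91.1, 115.6 and 78.8) were highest in both 4OHT libraries. Serpinb6a shares 762 exonic bases with Nqo2.

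Of the docking proteins of plasminogen, S100a10 and Anxa2, which form 1 complex at the cell surface, fell in PD+LY. S100a10 fell by 0.88 on the log2 scale against 4OHT (adjusted p = 0.000425 by edgeR) and by 0.72 against cAMP (adjusted p = 0.00105). Anxa2 fell by 0.59 (adjusted p = 0.00321 by edgeR) and by 0.53 (adjusted p = 0.00507), and shares 98 exonic bases with an antisense gene. Their differences between 4OHT and cAMP were 0.16 and 0.07, and neither passed. In PD+LY against cAMP Plau, Plaur and Plat had not passed, and the difference between their changes and these was not tested. Lrp1, the receptor that clears activator-inhibitor complexes, fell by 0.81 in PD+LY against 4OHT (adjusted p = 0.0157 by edgeR), with PD+LY libraries at 148 and 89.4 CPM, far apart, below both 4OHT libraries. Plgrkt, a plasminogen receptor, was 0.33 lower in 4OHT than in cAMP and passed no test. Vtn, vitronectin, a ligand of the Plaur product, rose by 1.91 in PD+LY against 4OHT (adjusted p = 0.0142 by edgeR) and by 1.76 against cAMP (adjusted p = 0.0164), from 8 to 15 counts to 40 and 56.

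Of the 27 listed partners 18 were tested. With the 2-fold threshold 1 was called higher in 4OHT against cAMP (Pzp, a broad protease inhibitor, 1.16) and 0 lower, and by adjusted p alone 2 were higher and 1 lower. Under the inhibitors, against 4OHT, 1 was called higher (Vtn) and 1 lower (Vldlr, another receptor for activator complexes, −1.03), and by adjusted p alone 1 was higher and 6 lower. Against cAMP 1 was called higher (Vtn) and 2 lower (Vldlr, −1.26, and Eno1, a glycolytic enzyme that also binds plasminogen, −1.11). The list medians were 0.09, −0.43 and −0.27, beside −0.0022, 0.0077 and 0.0049 over all tested genes.

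On the coagulation side, Tfpi, the inhibitor of the tissue factor complex, was called lower in PD+LY. Its cAMP libraries were at 126 and 123 CPM, those of 4OHT at 94.5 and 107, and those of PD+LY at 48.1 and 34.5, so the groups did not overlap. Tfpi fell by 1.29 on the log2 scale against 4OHT (adjusted p = 0.000109 by edgeR) and by 1.59 against cAMP (adjusted p = 1.39e-05), while F3 passed neither test, and the difference between the 2 genes was not tested. F2r, the thrombin receptor PAR1, fell by 0.53 in 4OHT against cAMP (adjusted p = 0.0291 by edgeR) and stood 0.39 lower in PD+LY than in cAMP (adjusted p = 0.0457). F2rl1, the receptor PAR2, was 0.36 lower in PD+LY than in cAMP (adjusted p = 0.0415 by edgeR). Procr and Pros1, the receptor and cofactor of protein C, the pathway Thbd serves, passed no test, and Procr was at 3.24 to 4.17 CPM.

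Of 31 coagulation and protein C genes 17 were tested. The fibrinogen gene Fgg was the 1 called higher in 4OHT against cAMP (2.00), from 8 and 14 counts to 35 and 48, and it shares 115 exonic bases with a lincRNA. By DESeq2 it did not pass (adjusted p = 0.0545). PD+LY had 0 higher and 3 lower against 4OHT (Fgg, −2.62, Fgb, −2.54, and Tfpi), and 0 higher and 2 lower against cAMP (F5, −1.61, and Tfpi). The medians were 0.11, −0.14 and −0.05. Of 20 other serpins 11 were tested, and 0 were called in 4OHT against cAMP by edgeR, where 3 passed by adjusted p alone, and 0 by DESeq2. Serpina3g was called lower in PD+LY against 4OHT (−2.02) and against cAMP (−2.35), and Serpinb1a was called higher against cAMP (1.48). Serpina3g has close paralogs, so its counts are uncertain.

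Relatives of Plaur by their Ly6/uPAR domain were set beside it. Of 20 listed 15 were tested, and 2 were called higher in 4OHT against cAMP, Ly6a and Ly6k, with 0 lower. PD+LY had 0 higher and 3 lower against 4OHT (Ly6d, Ly6k and Psca), and against cAMP 1 higher (Ly6a) and 3 lower (Ly6d, Ly6h and Ly6g6c). Ly6k was thus called in the direction of Plaur in both of the first comparisons, and shares 395 exonic bases with an antisense gene.

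**Figure D5:**
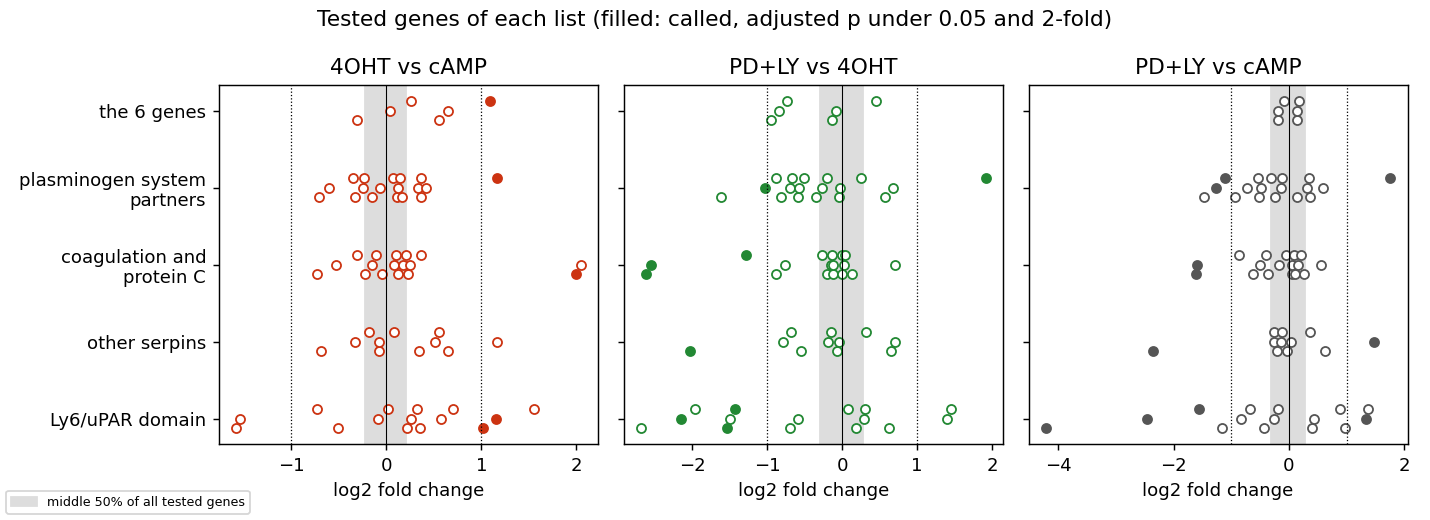
Log2 fold change (horizontal axes, with a different scale in each panel) of every tested gene of the 6 and of 4 related lists (rows) in the 3 comparisons, filled where called by an adjusted p under 0.05 and 2-fold, with dotted lines at 2-fold and a grey band for the middle 50% of all tested genes. In PD+LY against cAMP the 6 genes all lie between −0.19 and 0.17 and 0 are called, where 9.24% of all tested genes are. The called shares of the 4 lists there are 16.7% (partners), 11.8% (coagulation), 18.2% (other serpins) and 26.7% (Ly6/uPAR domain).

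Over the 6 libraries, log2 CPM of the activators and the receptor varied together. Pearson r was 0.954 between Plau and Plat, 0.85 between Plau and Plaur and 0.853 between Plaur and Plat. It was 0.731 between Serpine2 and F3, both of which were higher in PD+LY library 1 than in library 2, and −0.758 between Thbd and Plaur. The 6 points are 3 groups of 2, so these are descriptions of this pattern with no test.

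Among the 12218 tested genes that averaged 50 counts or more, those most like Plau over the 6 libraries were Igfbp7 (r = 0.994), Sdf2l1 (0.992) and Egfr (0.984). Those most like Plat were Ceacam1 (0.997), Slc1a4 (0.994) and Rnf208 (0.993), and those most like Plaur were Dnaja4 (0.993), Micos10 (0.99) and the syndecan gene Sdc1 (0.99). Serpine2 was followed most closely by Galnt18 (0.968), Tapt1 (0.961) and Itm2b (0.957), Thbd by Elf1 (0.996), 4930402H24Rik (0.995) and Aasdhppt (0.993), and F3 by Anxa3 (0.952), Edem1 (0.947) and Dnajc1 (0.935). The best matches of Serpine2 and F3 had a lower r than those of the other 4. Each best match is the highest of 12218 values over 6 libraries, so a high r can come from the search alone. These values and their differences were not tested. Within the 54 list genes of that depth, Serping1 (0.983) and Ly6k (0.974) were most like Plau. Ly6k (0.992), Serping1 (0.983) and Serpinb6a (0.959) were most like Plat, and Ggcx (0.912), Serping1 (0.895) and St14 (0.891) most like Plaur. For Serpine2 they were Lman1 (0.913), Pros1 (0.853) and Serpina3n (0.825), for Thbd Serpinb9 (0.808), Vkorc1l1 (0.804) and Serpini1 (0.803), and for F3 Serpinb6b (0.813), Serpinf1 (0.80) and P4hb (0.775).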

How the data were processed

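Bulk RNA-seq of 6 libraries, 2 per group, was used. The authors trimmed reads with Trimmomatic, mapped them to mm10 with HISAT2 and counted them per gene with HTSeq without strand, although the kit is stranded. The deposited values are raw counts, and tool versions are not given in the sources used here. The methods name duplicates of pooled wells and not whether these were separate differentiations, so p-values measure the spread between libraries, which may be technical.

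Counts were filtered by filterByExpr (minimum 10, total 15), scaled by TMM and fitted over all 6 libraries with the edgeR 4.0.16 quasi-likelihood test in R 4.3.3, with Benjamini-Hochberg adjustment over 15256 genes. A call needs an adjusted p under 0.05 and a 2-fold or larger change. DESeq2 1.42.0 left 592 genes of 4OHT against cAMP without adjusted p. Intervals are 95%. The smallest exact 2-sided permutation p for 2 against 2 is 0.3333, so none is given for single genes.

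The 6 genes and all lists were chosen with earlier results of these data known. Named were the 6 genes, 17 partners whether or not they moved, up to 5 called genes per list with the largest change, and the 3 genes most like each of the 6 (log2 CPM, prior count 2). A further partner is not reported here. Marker genes named singly, Klkb1, F12, Serpina5 and Cpb2 were chosen after their values were seen. Alternatives were DESeq2, RLE size factors, no filter, 2 groups only, the replicate block, no fold threshold and each library left out. Levels per kilobase use GENCODE M21 exons.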

Additional observations from a re-analysis of the deposited data

How the results depend on the processing

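Of 18 changes of the 6 genes, 11 reversed under none of 11 alternatives. With no filter Plau in 4OHT against cAMP (0.55) and Thbd in PD+LY against 4OHT (0.46) passed, and with only the 2 groups compared Plau (0.56) did. Neither of these changes passed with RLE size factors or by DESeq2. Libraries of different groups share only a replicate number, with correlations of same-numbered deviations of 0.158, 0.421 and 0.101 over 12224 genes. With the replicate block Plau was 0.55 and Thbd 0.44, both past the test, and 513, 1222 and 1481 genes were called in place of 408, 1107 and 1409. Without the fold threshold 1280, 3469 and 3925 genes passed, with 2, 3 and 0 of the 6 genes, 3, 7 and 5 partners, 2, 5 and 6 coagulation genes and, in the first 2 comparisons, 3 and 3 other serpins. By DESeq2 0 coagulation genes were called in 4OHT against cAMP, where edgeR called 1. The cause of these shifts was not tested.

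Leaving out 1 library at a time (a lone library is assumed to vary like the others) gave these ranges. In 4OHT against cAMP they were 0.52 to 0.59 for Plau, 0.87 to 1.38 for Plaur, 0.57 to 0.74 for Plat and −0.10 to 0.18 for F3, with F3 at −0.05 without cAMP library 1. The 6 genes had 0 to 1 call, 1 to 3 by adjusted p alone, and all genes 164 to 487. In PD+LY against 4OHT they were −0.93 to −0.57 for Plau, −1.01 to −0.88 for Plaur, −0.36 to 0.14 for Serpine2, 0.24 to 0.64 for Thbd and −0.42 to 0.10 for F3, with F3 at 0.02 without 4OHT library 2. Calls were 0 to 1 of the 6 (Plaur, without 4OHT library 2), 1 to 5 by adjusted p alone, and 632 to 1176 genes. In PD+LY against cAMP they were −0.082 to 0.43 for Plaur, −0.10 to 0.40 for Serpine2, −0.069 to 0.33 for Thbd and −0.37 to 0.15 for F3, with F3 at 0.01 without cAMP library 2. Of the 6 genes 0 to 1 passed by adjusted p alone.

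Floors of 3 counts cover counting error only.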

Other observations

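Ratios of raw counts within a library, chosen after the values were seen and not tested, do not depend on scaling. The ratio of F3 to Thbd was 2.92 and 3.55 in cAMP, 3.74 and 4.48 in 4OHT, and 2.84 and 2.62 in PD+LY, highest in 4OHT although F3 itself overlapped between the groups. The ratio of Thbd to Plat was 0.581 and 0.576 in cAMP, 0.315 and 0.282 in 4OHT, and 0.794 and 0.655 in PD+LY, with no overlap. The ratio of the receptor gene Plaur to its ligand gene Plau was 0.45 and 0.637 in cAMP, 0.81 and 0.778 in 4OHT, and 0.616 and 0.773 in PD+LY, so that 1 PD+LY library came close to 4OHT.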
